A study of Mus musculus with 8 samples.

Results

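The 32 genes described here comprise enzymes of mitochondrial and peroxisomal fatty acid oxidation, the PPAR receptors that control them, and other PPAR targets. They were chosen by name: a gene was taken where an array probe carried its symbol or an older one, and its brightest probe stood for it. All 32 were found among the 27574 gene names on the array. Plin2 was found under Adfp and Eci1 under Dci. They were measured on 8 two-colour Agilent arrays of the mouse transcriptome, which hybridise RNA of 2 sources side by side and give their ratio.

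A first set of 4 arrays compared GFPhi cells with GFPlo cells, both sorted by flow cytometry from the intestine of Lgr5-EGFP-ires-CreERT2 mice. In these mice the green fluorescent protein and Cre are made from the Lgr5 promoter, and Lgr5 marks the cycling stem cells of the crypt base, so that all sorted cells carry the reporter allele. There were 2 sorts, each a pool of 3 mice. The other 4 arrays compared small intestinal epithelial cells of Ah-Cre/Ascl2 floxed/floxed mice (deleted) with those of Ah-Cre/Ascl2 floxed/wt mice (control), with 1 RNA pair taken 5 days and 1 taken 3 days after Cre induction. Controls thus also carry Ah-Cre and 1 floxed copy of Ascl2, the gene of a transcription factor of the crypt base. The sources used here give neither ages nor the number of animals behind each deletion pair. Each RNA pair has 2 dye-swapped arrays, which were averaged to 1 replicate, giving n = 2 RNA pairs per comparison. Because each day had 1 RNA pair on its own slide and scan, day, RNA pair, slide and scan cannot be told apart.

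Fatty acids enter mitochondria through the carnitine shuttle, and a cycle of dehydrogenase, hydratase, hydroxyacyl-CoA dehydrogenase and thiolase then shortens them to acetyl-CoA, which can be made into ketone bodies. Very long chains are first shortened in peroxisomes. PPARα and PPARδ, nuclear receptors that bind fatty acids and pair with RXR, switch on many of these genes, and in the small intestine absorptive enterocytes and crypt stem cells are both known to use the pathway.

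The element that PPAR and RXR bind is called DR1: the hexamer AGGTCA as a direct repeat with 1 base between the copies. It was searched on both strands in RefSeq promoter windows of 300 bases (250 before to 50 after each gene's start, build GRCm38.p6), with at most 1 mismatch per copy and 2 in all. A window was at hand for 27 of the 32 genes, with 29 windows in all, and 2 of these 29 windows (6.90%), of 2 genes, held a match, against 787 of all 32851 windows (2.40%). Both are shown because Acot12 passed the test between the days after the deletion and Etfa did not. Both matches lie on the strand opposite to the gene. In Acot12 the match spans bases -110 to -98 from the start with 1 mismatch, in the stretch chr13:91741387-91741447, plus strand. In Etfa it spans bases -77 to -65 with 2 mismatches, in chr9:55512284-55512344, minus strand. Capitals mark the match, and each stretch reads 5′ to 3′ along the gene.
Acot12: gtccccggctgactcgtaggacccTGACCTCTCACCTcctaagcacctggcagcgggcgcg
Etfa: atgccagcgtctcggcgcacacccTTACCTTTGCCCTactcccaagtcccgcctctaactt

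The 100 bases before the start are shown for Pdk4, which had the lowest day difference of the 32 genes, and Acot1, which had the highest ratio in the sorts. The Pdk4 stretch is chr6:5496279-5496378, minus strand, and the Acot1 stretch is chr12:84009402-84009501, plus strand, both in GRCm38.p6. Neither window of 300 bases held the element, which says only that these letters are not in this window.
Pdk4: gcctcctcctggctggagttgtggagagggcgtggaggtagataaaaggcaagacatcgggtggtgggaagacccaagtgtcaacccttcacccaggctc
Acot1: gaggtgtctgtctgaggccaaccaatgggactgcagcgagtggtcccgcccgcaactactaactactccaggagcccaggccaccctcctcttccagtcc

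As a check of the labels, the log2 ratios of deleted over control for Ascl2 ran from -1.34 to -1.29 on day 5 and from -1.36 to -1.30 on day 3. The sources used here do not say which part of Ascl2 is floxed. For Lgr5 the log2 ratios of GFPhi over GFPlo ran from 1.48 to 2.21 over the 4 arrays. Goblet and enteroendocrine markers were lower in GFPhi cells on all 4 arrays, each with 7 of 7 tested genes. Spots well above background made up 55.0% to 66.9% per channel in the deletion and 35.5% to 44.6% in the sorts, and no spot of the 32 genes was saturated. Neither comparison of 2 RNA pairs called any gene at a limma adjusted p under 0.05 (0% of 10435 genes tested in the sorts and 0% of 15892 in the deletion).

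In the sorted cells, the largest ratios among these genes belonged to Acot1 and Plin2, both higher in GFPhi than in GFPlo cells on every array, and most others lay near 0. Of the 32 genes, 28 were bright enough to be tested there, and Acot2, Acot12, Pdk4 and Decr1 were not. Among the 28, the ratio lay above 0 for 18 and below 0 for 10. Their median log2 ratio was 0.061, against 0.00077 for all genes tested, with 0.12 in sort 1 and 0.0060 in sort 2. None of the 28 passed the limma adjusted threshold. An unadjusted p under 0.05 was found for 2 of them, Acot1 and Plin2, and for 5.08% of all genes tested.

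Acot1 encodes a cytosolic thioesterase that splits long-chain acyl-CoA into free fatty acid and CoA, and it is a classical PPARα target in liver. Its log2 ratio of GFPhi over GFPlo was 1.33 and 1.28 in sort 1 and 1.47 and 1.18 in sort 2. All 4 values lay far above 0 and the sorts overlapped. The mean was 1.31 ± 0.0135 (SD, n = 2 sorts), a level 2.48-fold higher in GFPhi cells, with a limma adjusted p of 0.707. When the sorts were fitted without the deletion arrays, which had an SD of 0.832 between the days for this gene, the limma adjusted p was 0.00598. The probe lies at chr12:84907250-84907309, plus strand, of build mm8, and for this and all probes below exon and UTR positions are not given because no annotation of mm8 was used.

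Plin2 encodes perilipin 2, a protein that coats lipid droplets and is induced by PPARs. In sort 1 its log2 ratio was 0.86 and 0.60, and in sort 2 it was 0.57 and 0.92, again above 0 on every array. The mean was 0.74 ± 0.00837 (SD, n = 2 sorts), a level 1.67-fold higher in GFPhi cells (limma adjusted p = 0.629, and 0.0215 with the sorts fitted alone). With that fit, 49 of the 10435 genes (0.47%) were called higher in GFPhi and 65 (0.623%) lower. Acot1 and Plin2 were the members among those called higher, and 0 members were called lower.

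Higher on all 4 sort arrays were 8 of the 28 genes, and lower on all 4 were 4. Over all genes tested, 16.6% were higher on all 4 and 17.1% lower on all 4. Besides Acot1 and Plin2, the higher ones were the trifunctional protein subunit Hadha (mean log2 ratio 0.13), the isomerase Eci1 (0.08), the peroxisomal thiolases Acaa1a (0.26) and Acaa1b (0.14), the mitochondrial thiolase Acaa2 (0.30) and Angptl4 (0.31), a secreted inhibitor of lipoprotein lipase. Acaa2 spanned only 0.26 to 0.37 over the 4 arrays, and Acaa1a 0.18 to 0.34. Those lower on all 4 were the dehydrogenase Acadm (-0.06), the flavoprotein subunit Etfb (-0.19), Pparg (-0.14) and the ω-hydroxylase Cyp4a10 (-0.12).

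The rate-limiting Cpt1a, which makes acylcarnitines at the outer membrane, ran from -0.31 to 0.06 over the 4 arrays. Ppara had -0.42 and -0.31 in sort 1, but -0.06 and 0.0022 in sort 2. Ppargc1a, a coactivator of the PPARs, had 0.59 and 0.24 in sort 1 and -0.08 and 0.04 in sort 2. For these 3 genes the sign changed between arrays, and none of the 3 passed the test.

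**Figure D1:**
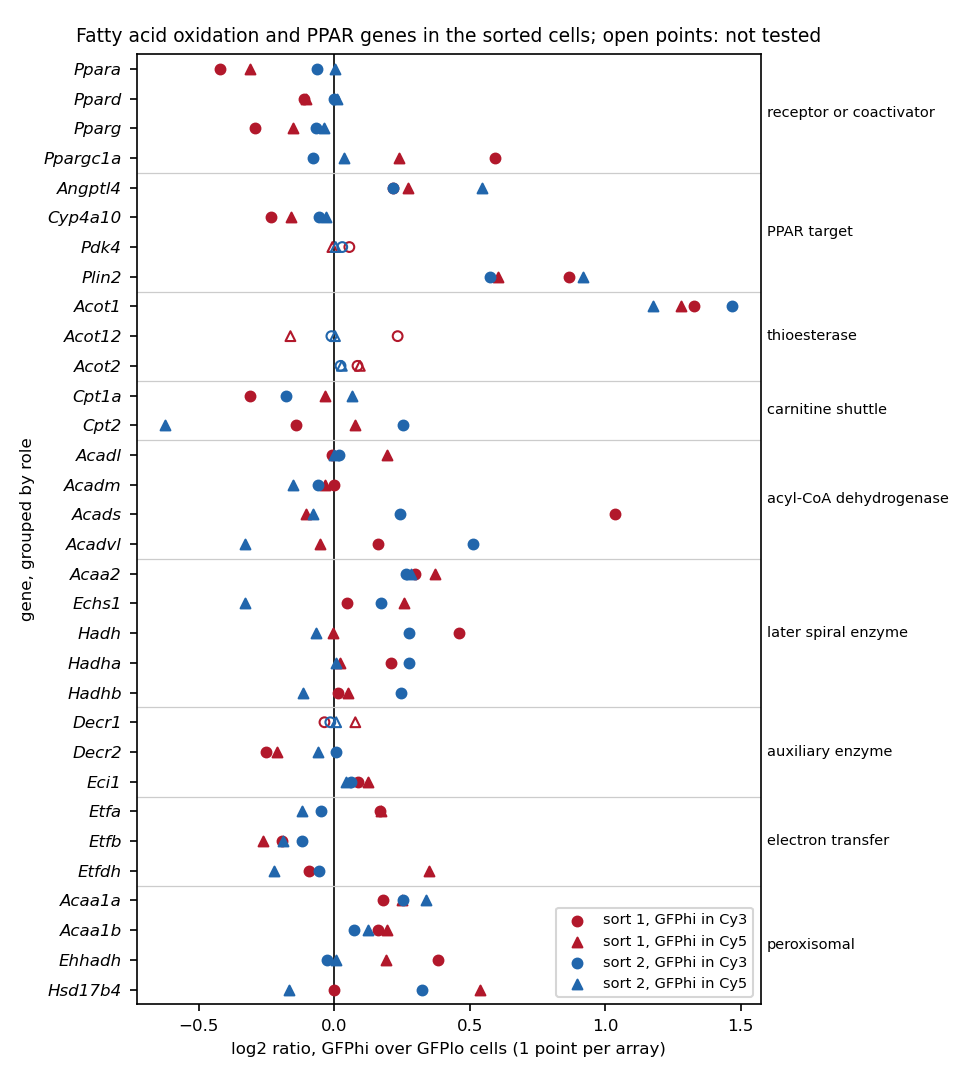
Each point is 1 array's log2 ratio of GFPhi over GFPlo (horizontal axis) for each of the 32 genes (vertical axis, by role), with 2 dye-swapped arrays per sort; open points are the 4 genes not tested. Acot1 (1.18 to 1.47) and Plin2 (0.57 to 0.92) stand to the right of 0 on all 4 arrays, while most other genes straddle or lie near 0.

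After the deletion of Ascl2, averaged over both days, Plin2 was lower and most genes of the pathway lay slightly below control. The ratio was below 0 for 23 of the 32 genes and above 0 for 9. Their median log2 ratio was -0.10, against -0.00073 for all genes tested. That median was -0.22 on day 5 and 0.03 on day 3, so the small shift stood on the day 5 pair. None of the 32 passed the limma adjusted threshold over both days, and 3 (Plin2, Hsd17b4 and Acadm) had an unadjusted p under 0.05, as did 9.65% of all genes tested. With the day 3 pair left out, 7 of the 32 were called on day 5 alone, all lower, beside 3.27% of all genes tested called lower and 4.56% higher. With the day 5 pair left out, 10 of the 32 were called on day 3 alone, 8 higher and 2 lower, beside 17.9% of all genes higher and 20.9% lower. In both fits the lone pair was assumed to vary like the sorts.

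Plin2 had log2 ratios of deleted over control of -0.90 and -0.65 on day 5, against -0.62 and -0.70 on day 3. All 4 values were below 0 and the days overlapped. The mean of -0.72 ± 0.0811 (SD, n = 2 RNA pairs) is 1.64-fold lower in deleted epithelium, with an unadjusted limma p of 0.0010 and an adjusted p of 0.370. Plin2 was thus the 1 gene of the 32 with an unadjusted p under 0.05 in both comparisons, higher in GFPhi cells and lower in deleted epithelium. Both p-values came from 1 fit with 1 spread shared by the comparisons (SE 0.083 in each), so they are not independent. The share of all genes under 0.05 in both was not counted. Its probe lies at chr4:86128003-86128062, minus strand, of build mm8.

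Hsd17b4, the bifunctional enzyme of peroxisomal oxidation for branched chains, had log2 ratios of -0.14 and -0.36 on day 5, against -0.70 and -0.38 on day 3. It was below control on all 4 arrays, with a mean of -0.40 ± 0.207 (SD, n = 2 RNA pairs) and a limma adjusted p of 0.50. Acadm, the medium-chain acyl-CoA dehydrogenase, had 0.02 and 0.41 on day 5, against 0.49 and 0.16 on day 3. It was the only one of the 32 higher on all 4 arrays, with a mean of 0.27 ± 0.0765 (SD, n = 2 RNA pairs) and a limma adjusted p of 0.50. Lower on all 4 were 5 genes: Plin2, Hsd17b4, the carnitine palmitoyltransferase Cpt2 (mean -0.19), Etfa (-0.15), a subunit of the flavoprotein that passes electrons from the dehydrogenases to the respiratory chain, and Pparg (-0.23). Over all genes tested, 12.6% were higher on all 4 arrays and 13.3% lower on all 4.

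**Figure D2:**
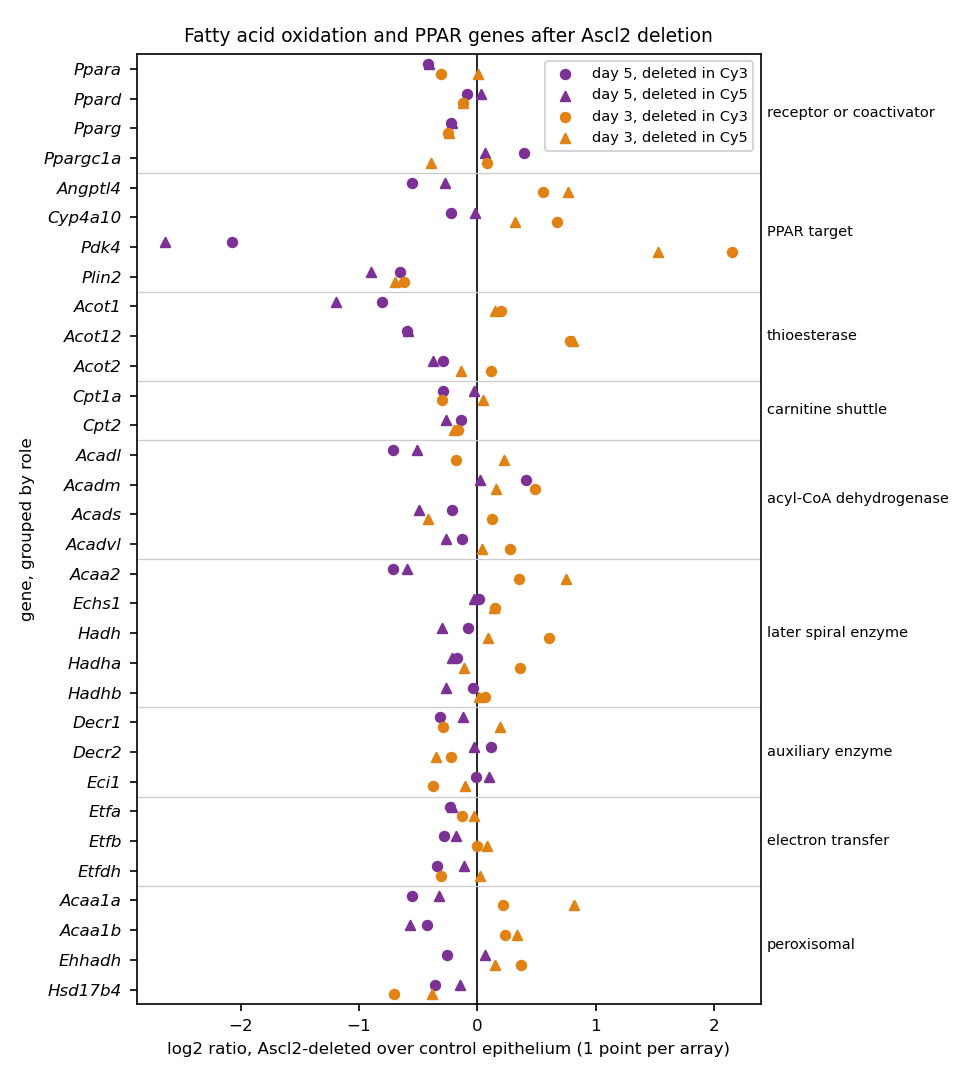
Each point is 1 array's log2 ratio of deleted over control epithelium (horizontal axis) for each of the 32 genes (vertical axis, by role), coloured by day after induction, 2 dye-swapped arrays per day. Pdk4, Acot12, Acaa2, Acaa1a, Acaa1b and Angptl4 have both day 5 points below 0 and both day 3 points above 0, while Plin2 lies below 0 on both days.

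The mean over days hides the main pattern of these genes, which is that many had a lower ratio of deleted over control on day 5 than on day 3. The difference passed the test for 10 of the 32 genes, all 10 lower on day 5: the kinase Pdk4, the thioesterases Acot12 and Acot1, the thiolases Acaa2, Acaa1a and Acaa1b, the secreted Angptl4, the dehydrogenases Acadl and Hadh, and Cyp4a10. Over all 15892 genes tested, 2021 (12.7%) were called lower on day 5 and 2521 (15.9%) higher. The difference lay below 0 for 26 of the 32 and above 0 for 6, and its median was -0.23, against -0.000042 for all genes tested. Of the 32 genes, 11 had both arrays below 0 on day 5 and both above 0 on day 3, and 0 had the opposite pattern; over all genes tested these patterns held for 14.8% and 13.2%. In bulk epithelium, fewer cells of a type and less RNA per cell cannot be told apart.

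This test has 1 RNA pair per day, and its spread comes from the 2 sorts, so its p-values do not include the variation between animals of the deletion experiment. With median centring in place of the intensity-dependent loess normalisation 0 genes were called. There 2519 of 15892 genes had an unadjusted limma p under 0.05, as did 5 of the 32, a similar share. With median centring 0 of the 32 differences changed sign. With the scanner's own processed signals 1 of the 32, Pdk4, was called, beside 0.453% of all genes tested.

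Pdk4 encodes a kinase that inactivates pyruvate dehydrogenase, so that cells burn fat in place of glucose, and it is one of the most responsive PPAR targets known. Its log2 ratio of deleted over control was -2.64 and -2.08 on day 5, against 2.15 and 1.52 on day 3. The deleted epithelium thus held 5.12-fold less Pdk4 RNA than control on day 5 and 3.58-fold more on day 3. The difference of -4.20 (SE 0.11) is an 18.3-fold lower ratio on day 5, with a limma adjusted p of 0.000931. In the sorts Pdk4 was well above background on 2 arrays for GFPhi cells and on 1 for GFPlo cells, too few to be tested. Its ratios there ran from -0.0076 to 0.055, so the standard error of this difference rests on ratios near background. The probe lies at chr6:5433441-5433500, minus strand, of build mm8.

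Angptl4 had log2 ratios of -0.28 and -0.56 on day 5, against 0.55 and 0.77 on day 3. The days did not overlap, and the difference of -1.08 (SE 0.13) had a limma adjusted p of 0.0099. Cyp4a10, which hydroxylates the end of fatty acids in the endoplasmic reticulum, had -0.02 and -0.23 on day 5, against 0.67 and 0.32 on day 3, a difference of -0.62 (limma adjusted p = 0.0322). The other 2 probes of Cyp4a10 were not well above background, and how far this probe bound RNA of its close paralogs was not tested. Plin2 differed from these other PPAR targets in that its days overlapped, with a difference of -0.11 (limma adjusted p = 0.478).

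Among the thioesterases, Acot12, which releases acetate from acetyl-CoA, had log2 ratios of -0.59 and -0.60 on day 5, against 0.78 and 0.81 on day 3. The 2 dye-swapped arrays of each day's 1 RNA pair nearly coincided. The difference of -1.39 (SE 0.11) is a 2.61-fold lower ratio on day 5 (limma adjusted p = 0.00545). Acot12 was well above background on 0 arrays of the sorts, from which this SE comes, so the SE rests on ratios near background. Acot1, which was bright enough to be tested in the sorts, had an SE of the same size (0.11). Its probe lies at chr13:92260220-92260279, plus strand, of build mm8. Acot1 had -1.20 and -0.81 on day 5, against 0.20 and 0.15 on day 3. The level in deleted epithelium was 2.00-fold lower than control on day 5 and 1.13-fold higher on day 3, a difference of -1.18 (SE 0.11, limma adjusted p = 0.00698). Acot2, the mitochondrial thioesterase beside it on the chromosome, had -0.37 and -0.29 on day 5, against 0.12 and -0.14 on day 3. Its difference of -0.32 did not pass the test (limma adjusted p = 0.10). Acot1 and Acot2 are near-identical paralogs, and how far each probe also bound the other's RNA was not tested. Of 4 others of the family, Acot3, Acot4, Acot5 and Acot6, looked up after these values were seen, 2 were tested. Acot4 had a difference of -0.57 (limma adjusted p = 0.0323) and Acot6 of 1.16 (limma adjusted p = 0.00886).

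**Figure D3:**
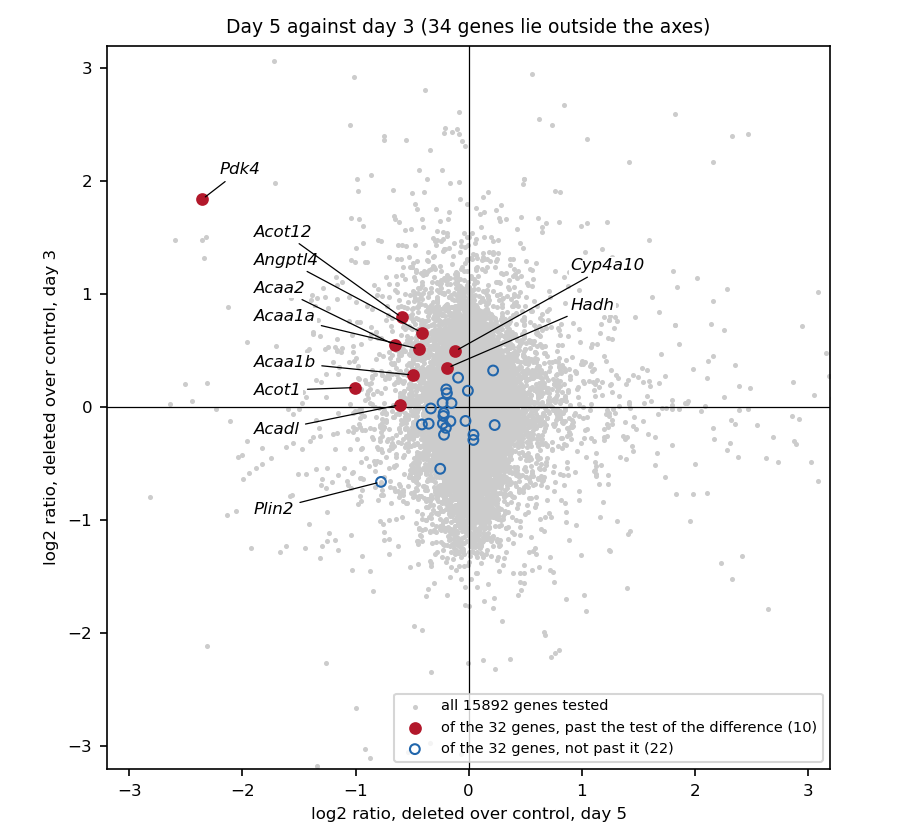
Each point is a gene, with the mean log2 ratio of deleted over control on day 5 on the horizontal axis and on day 3 on the vertical axis; grey points are all genes tested, filled red points the 10 of the 32 genes past the test and open blue points the other 22, and 34 genes lie outside the axes. Pdk4 (-2.36 on day 5, 1.84 on day 3) and Acot12 (-0.59 and 0.79) stand out to the upper left, and Plin2 lies to the lower left.

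The last step of the mitochondrial cycle, the thiolase reaction, is carried by Acaa2 and by the trifunctional protein. Acaa2 had log2 ratios of -0.60 and -0.71 on day 5, against 0.36 and 0.75 on day 3. The days were clearly apart, with a difference of -1.21 (SE 0.11) or a 2.31-fold lower ratio on day 5 (limma adjusted p = 0.00699). Hadh, the short-chain hydroxyacyl-CoA dehydrogenase, had -0.30 and -0.08 on day 5, against 0.61 and 0.09 on day 3. The 2 dye orientations of day 3 differed by more than the days did at their nearest, and the difference was -0.54 (limma adjusted p = 0.0387). Of the 5 later enzymes of the mitochondrial cycle these 2 were called, beside 12.7% of all genes tested called lower and 15.9% higher. Hadha (-0.32), Hadhb (-0.19) and Echs1 (-0.15) had differences below 0 that did not pass. For Hadha a dimmer probe went the other way, with mean log2 ratios of 0.57 on day 5 and 0.21 on day 3.

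Of the 4 mitochondrial acyl-CoA dehydrogenases, which open the cycle, Acadl was called lower, beside 12.7% of all genes tested. Acadl, for long chains, had log2 ratios of -0.51 and -0.71 on day 5, against -0.18 and 0.22 on day 3, a difference of -0.63 (limma adjusted p = 0.0234). Its day 5 values lay below all day 3 values. The very-long-chain enzyme Acadvl (-0.36), the short-chain enzyme Acads (-0.21) and Acadm (-0.11) had differences below 0 that did not pass.

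Peroxisomal oxidation ends in the thiolases Acaa1a and Acaa1b. Acaa1a had log2 ratios of -0.32 and -0.55 on day 5, against 0.22 and 0.81 on day 3, a difference of -0.95 (limma adjusted p = 0.0104). Acaa1b had -0.57 and -0.42 on day 5, against 0.23 and 0.34 on day 3, a difference of -0.78 (limma adjusted p = 0.0146). In both genes the days did not overlap. The 3 probes of Acaa1a gave day 5 means of -0.44, -0.53 and -0.60 and day 3 means of 0.52, 0.32 and 0.32, but 1 of them also lists the accession of Acaa1b, so the paralogs may share signal. Of the bifunctional enzymes, Ehhadh had a difference of -0.35 and Hsd17b4 of 0.29, and neither passed.

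In the carnitine shuttle, Cpt1a and Cpt2 had differences of -0.04 (SE 0.12) and -0.02 (SE 0.13), and 0 of the 2 passed, beside 28.6% of all genes tested. Cpt1a, a PPAR target itself, had log2 ratios of -0.03 and -0.29 on day 5, against -0.30 and 0.05 on day 3. Cpt2 had -0.27 and -0.13 on day 5, against -0.16 and -0.20 on day 3. In both genes the days overlapped.

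The electron transfer flavoproteins Etfa, Etfb and Etfdh had differences of -0.15, -0.27 and -0.08, and 0 of the 3 passed. Etfa had -0.21 and -0.23 on day 5, against -0.13 and -0.03 on day 3, below control on every array. The enzymes that rearrange double bonds were mixed, with differences of 0.29 for Eci1, 0.33 for Decr2 and -0.17 for Decr1, and 0 of the 3 passed. Both counts stand beside 28.6% of all genes tested.

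None of the receptors passed the test between the days, which 28.6% of all genes tested passed. Ppara, the receptor of the fasting response, had log2 ratios of -0.41 and -0.42 on day 5, against -0.31 and 0.0047 on day 3, a difference of -0.26 (limma adjusted p = 0.37). Ppard, the most widely expressed of the 3 receptors, had mean log2 ratios of -0.03 on day 5 and -0.12 on day 3. Pparg lay between -0.25 and -0.21 on all 4 arrays. Ppargc1a had 0.07 and 0.40 on day 5, against 0.08 and -0.39 on day 3, the highest difference of the 32 at 0.39 (limma adjusted p = 0.28). This coactivator did not pass the test either, and its sign changed between the arrays of day 3. A dimmer probe of Ppargc1a had mean log2 ratios of 0.06 on day 5 and 0.07 on day 3.

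Among ketone body genes outside the 32, the cytosolic dehydrogenase Bdh2 was called lower on day 5, with a difference of -0.46 (limma adjusted p = 0.046). Bdh2 was well above background on 0 arrays of the sorts, so the spread behind this test rests on ratios near background. The mitochondrial dehydrogenase Bdh1, which interconverts the 2 main ketone bodies, had -0.25 and -0.11 on day 5, against -0.74 and -0.94 on day 3. Its difference of 0.66, in the other direction, did not pass (limma adjusted p = 0.0504). Over both days Bdh2 (-0.68), Bdh1 (-0.51) and the monocarboxylate transporters Slc16a1 (-0.40) and Slc16a7 (-0.36) were below control on all 4 arrays, with none passing. The day difference of Slc16a7 was 0.34 (limma adjusted p = 0.12). In the sorts, the ketone-using transferase Oxct1 (0.30) was higher and Slc16a1 (-0.35) lower in GFPhi cells on all 4 arrays, and neither passed.

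Of 27 other oxidation and carnitine genes tested, 11 were called lower on day 5 and 0 higher. Over all genes tested it was 12.7% lower and 15.9% higher, and the median difference of these 27 was -0.35. The largest with 1 sign were the very-long-chain acyl-CoA synthetase Slc27a2 (-1.51, limma adjusted p = 0.0368), the bile acid and branched-chain oxidase Acox2 (-1.13, 0.00728), the phytanoyl-CoA hydroxylase Phyh (-1.12, 0.0171) and the carnitine transporter Slc22a5 (-1.07, 0.00755). Slc22a5 had -0.06 and -0.12 on day 5, against 0.97 and 0.998 on day 3, so its difference stood on day 3. Slc27a2 had -1.48 and -1.47 on day 5, against 0.02 and 0.06 on day 3, so its difference stood on day 5. Acox2 was too dim to be tested in the sorts, from which the spread of its difference comes. Over both days, the leucine pathway dehydrogenase Ivd (-0.41), the acyl-CoA synthetase Acsl1 (-0.19) and the short branched-chain dehydrogenase Acadsb (-0.09) lay below control on all 4 arrays and the synthetase Acsl4 (0.33) above it, with none passing. In the sorts, Slc27a2 (0.49), the carnitine octanoyltransferase Crot (0.19) and Ivd (0.16) were higher in GFPhi cells on all 4 arrays and the synthetase Acsl5 (-0.24) lower, again with none passing.

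Of 31 other PPAR target and fat storage genes tested, 12 were called lower on day 5 and 3 higher. Over all genes tested it was 12.7% lower and 15.9% higher, and the median difference of these 31 was -0.41. Vnn1, a pantetheinase induced by PPARα, had log2 ratios of -0.32 and -0.56 on day 5, against 2.01 and 2.20 on day 3, a difference of -2.54 (limma adjusted p = 0.00242). The fatty acid translocase Cd36 had -1.36 and -1.22 on day 5, against 1.20 and 0.91 on day 3, a difference of -2.34 (limma adjusted p = 0.00222). Both, like Pdk4, were below control on day 5 and above it on day 3. The glycerol channel Aqp7 (-1.51) and the lipid droplet protein Cidec (-1.41) had the next largest differences in this list. Cd36 and Aqp7 were well above background on 0 arrays of the sorts, so the spread behind their tests rests on ratios near background. In the sorts, the enterocyte fatty acid binding protein Fabp1 had a mean log2 ratio of -1.15 and the acyltransferase Mogat2 of -0.90, both lower in GFPhi cells on all 4 arrays with a limma adjusted p of 0.845 for Fabp1 and 0.629 for Mogat2. The fatty acid binding protein Fabp2 (-0.59) and the triglyceride-making Dgat2 (-0.38) were also lower there on all 4 arrays and did not pass in the fit of all 4 RNA pairs. With the sorts fitted alone, the limma adjusted p was 0.0148 for Mogat2 and 0.0426 for Fabp2. It was 0.12 for Fabp1 and 0.218 for Dgat2. Over both days of the deletion, the lipoprotein lipase Lpl (0.60) and Fabp4 (0.48) lay above control on all 4 arrays, and the desaturase Fads2 (-0.55) and the mitochondrial carrier Ucp2 (-0.37) below it, with none passing.

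Partners and coregulators of the PPARs went both ways, with 2 of 17 tested genes called lower on day 5 and 4 higher. Over all genes tested, 12.7% were called lower and 15.9% higher. Rxra, the RXR that pairs with PPARs, had -0.23 and 0.02 on day 5, against 0.80 and 0.60 on day 3, a difference of -0.81 (limma adjusted p = 0.0236). The coactivator Ppargc1b had 0.26 and 0.52 on day 5, against -0.80 and -0.78 on day 3, a difference of 1.18 (limma adjusted p = 0.0114). Lpin1, a phosphatidate phosphatase that also acts with PPARα and PGC-1α, had a difference of 1.13 (limma adjusted p = 0.0337). Rxra and Ppargc1b thus had opposite signs on day 3. The Mediator subunit Med1 had a difference of 0.51 (limma adjusted p = 0.0337). Over both days, the nuclear receptors Hnf4g (0.40), Nr1h3 (0.36) and Hnf4a (0.35) lay above control on all 4 arrays and Esrrg (-0.53) below it, with none passing. In the sorts, Rxrb (0.21) lay above 0 on all 4 arrays, and Ppargc1b (-0.27), Esrra (-0.25) and Lpin1 (-0.24) below 0, with none passing.

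Markers of cell types also differed between the days. Their counts, in and outside the epithelium, stand beside 12.7% of all genes tested called lower on day 5 and 15.9% higher. Of 16 enterocyte genes tested, 10 were called lower on day 5 and 1 higher; their median log2 ratio was -0.37 on day 5 and 0.40 on day 3, the same signs as for the 32 genes. The apolipoprotein Apoa4, with the lowest difference of the 16 (-2.38), had -1.45 and -1.32 on day 5, against 1.26 and 0.74 on day 3. Cbr1, the 1 called higher (1.56), had -0.36 and -0.46 on day 5, against -2.18 and -1.75 on day 3. Of 10 cell cycle genes, 9 were called higher on day 5, and their median was -0.03 on day 5, against -1.19 on day 3, and of 5 Paneth genes 4 were called higher (-0.03 and -1.20). For the 12 crypt base stem cell genes the median was -0.42 on day 5, against -0.94 on day 3, and 3 were called higher and 0 lower. The 7 goblet genes had medians of 0.01 and 0.94, with 2 called higher and 3 lower. The part of these shifts in the results for fatty acid oxidation was not tested.

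Among cells outside the epithelium, fibroblast and smooth muscle genes had a median of 2.91 on day 5, against -0.13 on day 3, and 5 of 8 were called higher. The collagen gene Col1a1 had log2 ratios of 4.95 and 4.67 on day 5, against -0.88 and -0.97 on day 3, while the smooth muscle gene Acta2 had 0.28 and 0.08 on day 5, against 0.05 and 0.17 on day 3. For T cell genes the median was -0.04 on day 5, against 0.90 on day 3, and 5 of 8 were called lower, and macrophage genes 0.37 and -0.16, with 6 of 8 called higher. Of 4 B and plasma cell genes 2 were called lower, and of 2 erythrocyte genes 1. Of 7 adipocyte genes 2, Cidec and Plin1, were tested; Adipoq and Lep, which define adipocytes, were above background on no array of the deletion. None of the 5 endothelial genes was tested. The part of these cells in the results for fatty acid oxidation was not tested. In the sorts, cell cycle genes had a median of 0.07 and enterocyte genes of -0.17, with 9 of 11 below 0.

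**Figure D4:**
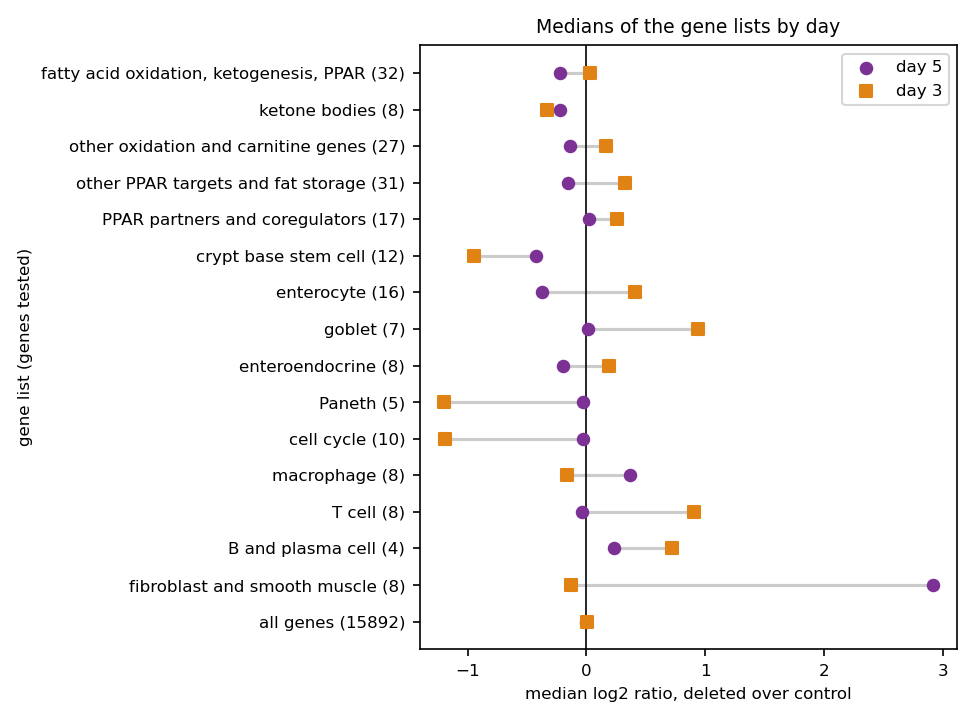
For each gene list (vertical axis, number of genes tested in brackets) the points show the median log2 ratio of deleted over control on day 5 and on day 3 (horizontal axis). The 32 genes of fatty acid oxidation (-0.22 on day 5, 0.03 on day 3) and the enterocyte genes (-0.37 and 0.40) are lower on day 5, while the cell cycle (-0.03 and -1.19) and fibroblast and smooth muscle (2.91 and -0.13) lists are higher.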

How the data were processed

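RNA was extracted with Trizol and amplified linearly before labelling, per the labels' protocols. Per the file headers, the arrays were read with Agilent Feature Extraction 9.5.3.1 (protocol GE2-v5_95_Feb07), with probe positions of mouse build mm8. The deposited scanner files hold spot intensity values on a linear scale, per the file headers, as mean foreground and median background, together with the scanner's processed signals and a log10 ratio, Cy5 over Cy3. The authors' deposited series matrix holds log2 ratios already turned to deleted over control or GFPhi over GFPlo: its columns correlated with the scanner's ratios at 0.964 to 0.999 and had medians of -0.0224 to 0.0347. The sources used here do not say whether the authors centred them. Marks for outlier spots and for spots well above background are 0 or 1, per the file headers.

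From the intensities, background was corrected with normexp (offset 50), ratios were normalised by loess within each array, 1639 control spots had weight 0, and marked outlier spots were left out. The 43379 other spots gave 41174 probes; names came by accession from the RefSeq names file (23347 probes), as current (6722) or older symbols (2915), as the member's name (42), or stayed as in the file (8148). A gene was tested if its brightest probe was marked as well above background, for the same 1 of the 2 RNAs or for both, on all arrays of that comparison (10435 genes in the sorts, 15892 in the deletion, 10311 in both). The 4 RNA pairs entered 1 linear model in limma 3.58.1 (lmFit, then eBayes; run under R 4.3.3 with version 1.17.8 of the data.table package, and statmod 1.5.0), two-sided, with Benjamini-Hochberg adjustment over all genes tested and a threshold of 0.05; the eBayes prior SD was 0.156, on 1.99 degrees of freedom. These prior values belong to the fit with 1 coefficient per comparison. The day difference came from a second fit of the 4 pairs, with a coefficient per day and 3.46 prior degrees of freedom. Its spread therefore comes from the 2 sorts. Genes not tested in the sorts had a lower median SD there (0.0458 against 0.0808), so their day SEs rest on ratios near background. Bright genes whose 2 sorts lay close had day SEs as low, such as Acot1 and Plin2 (0.11 each). Scripts were tested on simulated data.

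Members and lists were chosen with earlier results of these data known. All 32 members are named, with Ascl2 and Lgr5, and from each of 4 pathway lists up to 4 genes per comparison with the largest ratio among those with 1 sign on all 4 arrays (for the day difference, 1 sign in all differences between a day 5 and a day 3 array); 1 gene that the rule names is not reported here. Nothing says that the pairs are separate animals, so p-values measure the spread between these RNA pairs, which may be technical. Precision is limited by the number of RNA pairs, 2 per comparison and 1 per deletion day. Alternatives were other background, normalisation, filter, probe and variance choices, the RNA pair as a random block, the arms fitted apart and each pair left out.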

Additional observations from a re-analysis of the deposited data

Results flagged for a closer look

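For 10 of the 32 genes the effect of the deletion on day 5 differed from that on day 3 by a test of the difference itself, and in all 10 it was lower on day 5. Over all genes tested, 28.6% were called by this test, 12.7% lower on day 5 and 15.9% higher. The differences of log2 ratios were -4.20 for Pdk4, -1.39 for Acot12, -1.21 for Acaa2, -1.18 for Acot1, -1.08 for Angptl4, -0.95 for Acaa1a, -0.78 for Acaa1b, -0.63 for Acadl, -0.62 for Cyp4a10 and -0.54 for Hadh. In all of these but Acadl, whose day 3 arrays had opposite signs, both arrays of day 5 lay below 0 and both arrays of day 3 above it.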

How the results depend on the processing

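The counts of called genes depended on the processing. For the day difference the 4542 became 0 with median centring, 72 with the scanner's processed signals, 1575 with the series matrix and 7750 with the RNA pair as a random block, and 2560 over the genes tested in both comparisons, an alternative chosen after seeing the data. Of the 32 members, 10 were called as reported (31.2%, beside 28.6% of all genes tested) and 0 with median centring. The scanner's processed signals called 1 (3.12%, beside 0.453%) and the series matrix 5 of 31 (16.1%, beside 11.7%). With the RNA pair as a random block 15 of 32 were called (46.9%, beside 48.8%). Of these 15, 13 were lower and 2, Eci1 (limma adjusted p 0.0182) and Decr2 (0.0223), higher. Over the genes tested in both comparisons 7 of 28 were called (25%, beside 24.8%). The cause of these differences between settings was not tested. The share of called genes that were higher was 55.5% as reported and 70.8% with the scanner's processed signals. All 10 called members stayed lower on day 5 under every alternative run for them. The filter, variance and random block choices, and the genes tested in both comparisons, reuse the same ratios, so there the sign could not change. Every alternative also uses the same 1 RNA pair per day. Over these, the limma adjusted p ran from 2.75e-07 to 0.182 for Pdk4 and from 0.0199 to 0.564 for Hadh, which stayed called in 5 of 10.

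In the sorts the 0 called genes became 38 with the RNA pair as a random block and 114, with 2 members (Acot1 and Plin2), when the arms were fitted apart. In the deletion the 0 became 254 with that block, with 1 member, Plin2 (adjusted p 0.0331). Leaving out 1 RNA pair gave between 0 and 128 genes and 0 and 2 members in the sorts, with the most where either day was left out. In the deletion it gave between 0 and 6180 genes and 0 and 10 members: without day 5, 6180 and 10, and without day 3, 1245 and 7. The mean over both days took the other sign in 9 of the 32 without day 3 and in 10 without day 5. Of these, 3 were then called against the sign of that mean, and their lowest value, without day 3, and highest, without day 5, were -0.59 and 0.79 for Acot12, -2.36 and 1.84 for Pdk4 and -0.65 and 0.55 for Acaa2. With median centring, 6 of the 28 sort ratios and 7 of the 32 deletion ratios changed sign, the largest of them 0.166 and 0.123 as reported. The members' median ran from -0.0181 to 0.141 in the sorts and from -0.258 to 0.0295 in the deletion, so its sign turned in both, and from -0.283 to -0.198 for the day difference.

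No paired analysis was possible because each ratio already sets both RNAs of a pair side by side on 1 array, and the comparisons share fewer than 2 replicate numbers. Slide or scan as a block was not run, since each holds 1 RNA pair, and the day difference had no fit with a sort or a day left out or with the arms apart. Signal over background limits the sorts most, where 35.5% to 44.6% of spots were well above it and 4 of the 32 genes were not tested.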
